A study of Mus musculus with 21 samples.

Results

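Langerhans cells are the resident antigen-presenting cells of the epidermis, and the genes described here are 7 that they express together with their growth factor receptor and its ligands. The 10 genes were chosen by name, with earlier results of these data known: Csf1 and Il34 (ligands), Csf1r (receptor), and Cd207, Itgax, Ly75, Adgre1, Fcer1g, Ctss and Mfge8. They are 10 of the 49315 gene identifiers in the count files, and all 10 were among the 17755 genes that had enough counts to be tested at 6 months of age. Total RNA was sequenced from epidermal sheets of mouse skin. The comparison was between 3 libraries of the strain-specific control, genotype WT, at 6 months and 3 libraries of K14CreTfap2afl/flTfap2bfl/fl, called the double knockout, at 6 months. In the latter, floxed alleles of Tfap2a and Tfap2b, the genes of the AP-2α and AP-2β transcription factors, were combined with a Cre driven by the keratin 14 promoter, which is active in keratinocytes of the basal layer. A further 2 libraries with counts, labelled K14CreTfap2bfl/fl at 3 weeks, had no control of their age with counts and are given as values only. The remaining 13 of 21 files listed 0 for all genes. The labels did not say whether libraries came from separate animals, so p-values measure only the spread between these libraries, which may be technical.

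Langerhans cells are of haematopoietic origin, whereas most cells of an epidermal sheet are keratinocytes, so Cre driven by the keratin 14 promoter is not expected to act in the Langerhans cells themselves. CSF1R is a receptor tyrosine kinase of macrophages and related cells, and it is bound by CSF1 and by IL-34, which share no obvious sequence similarity. Keratinocytes are the main epidermal source of IL-34, and resident Langerhans cells need IL-34 rather than CSF1 in undisturbed skin, while CSF1 has been linked to their return after inflammation.

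The 8 libraries held 11318181 to 17746284 counts. The genes named as deleted did not pass the test, and Tfap2a was not lower in the double knockout. Tfap2a was at 164.6, 140.3 and 210.1 counts per 1000000 library counts (CPM) in control libraries 1 to 3 and at 229, 213 and 309 CPM in double knockout libraries 1 to 3, and Tfap2b at 57.3, 86.6 and 71.0 against 53.8, 57.2 and 56.9 CPM (adjusted p in edgeR's quasi-likelihood test 0.118 and 0.111). Every Tfap2a value of the double knockout lay above the controls and every Tfap2b value below them. Tfap2a passed as higher without control library 3 (log2 fold change 0.72, adjusted p = 0.0160, edgeR) and with no filter on low counts (0.57, adjusted p = 0.0204). The counts are per whole gene, so they cannot show whether the floxed parts were lost, which was not tested. The group is therefore called the labelled double knockouts. Control libraries 1 and 2 stood apart: they had counts in 35794 and 39362 genes, against 23454 to 25537 in the other 6. A set of 1420 odorant and vomeronasal receptor genes gave 1.61 and 3.19 counts per exonic kb in them, against 0.0971 to 0.195 in the other 6. Counts at this rate are called the receptor-gene background. The first 3-week library also stood apart, with marker genes of dermal fibroblasts summing to 2675 CPM, against 16.7 to 173.7 CPM in the other 7 libraries.

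Of the 10 genes, 1 passed the test at 6 months, Csf1, which was higher in the labelled double knockouts (edgeR quasi-likelihood test, Benjamini-Hochberg adjusted p under 0.05). None was lower by that test. Over all genes tested, 14.9% passed, 6.26% as higher and 8.59% as lower, so 1 of 10 is near the share among all genes. These were 1111 higher and 1526 lower genes, or 1414 and 1297 when libraries were scaled by their totals alone. An unadjusted p under 0.05 in edgeR was reached by 5691 of the 17755 genes tested. Among the 10 it was reached by 2, Csf1 and Csf1r. These were also the 2 whose libraries did not overlap between the groups, both above the controls, against 38.7% of all genes with no overlap and 22.5% with every library labelled double knockout above. The median log2 fold change was -0.0094 over the 10 genes and -0.035 over all genes tested. In bulk RNA, fewer cells of a type and less RNA per cell cannot be told apart.

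**Figure D1:**
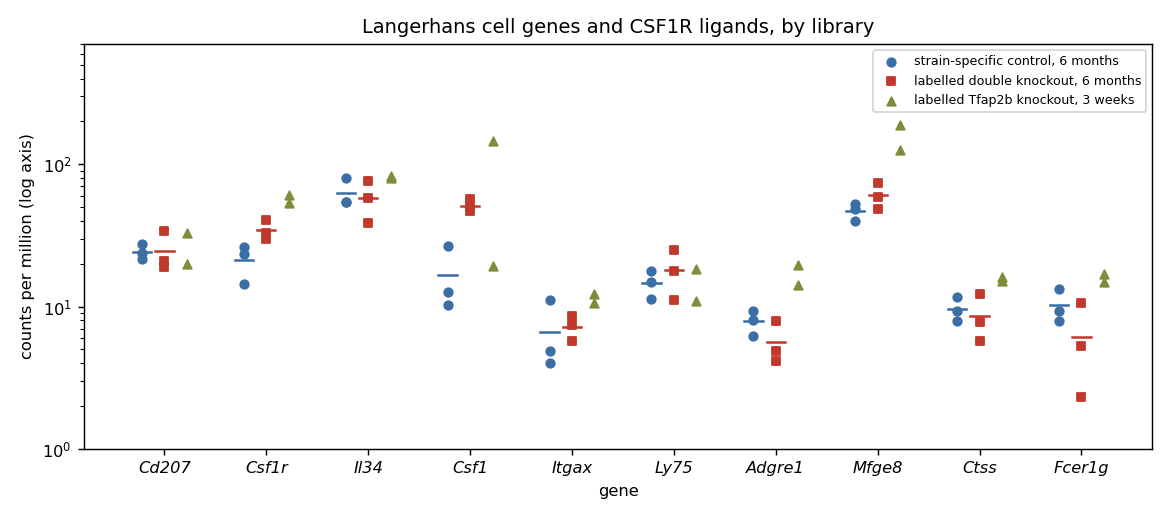
CPM of the 10 genes in each library, on a log axis, with the mean of 3 libraries as a bar for each 6-month group. The Csf1 and Csf1r points of the labelled double knockouts lie above all 3 controls, and the points of the other 8 genes overlap.

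Csf1, the cytokine that supports most macrophages, was at 10.3, 12.6 and 26.8 CPM in the controls, and at 56.6, 49.8 and 46.7 CPM in the labelled double knockouts. All 3 of the latter lay above the highest control, which was control library 3. The means were 16.6 ± 8.94 and 51.0 ± 5.04 CPM (SD, n = 3 each), and the log2 fold change was 1.54 (SE 0.32, adjusted p = 0.0151, edgeR quasi-likelihood test), a 2.90-fold difference with a 95% interval of 1.77 to 4.75. The gene lies on chromosome 3, GRCm38 107741048 to 107760469 on the minus strand, and 124, 143 and 412 counts stood against 781, 730 and 829. The call was lost without control library 2 (log2 fold change 1.38, adjusted p = 0.0607) and without labelled double knockout library 1 (1.498, 0.0660). It was also lost without control libraries 1 and 2 together, where the log2 fold change against control library 3 alone was 0.87 (adjusted p = 0.0734). Without control library 3 the log2 fold change was 2.14. The receptor-gene background amounted to 8.50 of the 124 counts in control library 1 and 16.9 of the 143 in control library 2.

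Il34, the ligand made by keratinocytes, did not pass the test. It was at 54.5, 54.2 and 80.5 CPM in the controls and at 57.9, 76.3 and 38.8 CPM in the labelled double knockouts. The lowest value was in labelled double knockout library 3 and the highest in control library 3, and the groups overlapped. The means were 63.1 ± 15.1 and 57.7 ± 18.7 CPM (SD, n = 3 each). Its log2 fold change came to -0.21 (SE 0.25, adjusted p = 0.602, edgeR), and the 95% interval of the fold ran from 0.589 to 1.28. Il34 lies on chromosome 8, 110741829 to 110805924 on the minus strand. The annotation places 2 genes on the opposite strand, Gm15894 and Gm15895, over 22 and 75 of its exonic bases.

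Because both proteins bind the same receptor, their transcripts were compared per exonic kilobase within each library. Il34 was at 27.8, 27.7 and 41.1 CPM per kb in the controls and at 29.5, 38.9 and 19.8 CPM per kb in the labelled double knockouts. Csf1 was at 1.95, 2.39 and 5.08 CPM per kb in the controls and at 10.7, 9.42 and 8.85 CPM per kb in the others. Il34 was the more abundant of the 2 ligands in all 6 libraries. The ratio of Il34 to Csf1 was 14.3, 11.6 and 8.09 in the controls and 2.76, 4.13 and 2.24 in the labelled double knockouts, with no overlap. Expressed as a share of both ligands, Il34 made up 93.4, 92.0 and 89.0 percent in the controls and 73.4, 80.5 and 69.1 percent in the labelled double knockouts. The mean log2 ratio was 3.46 ± 0.41 and 1.56 ± 0.45 (SD, n = 3 each), a difference of -1.90 (exact permutation test, two-sided p = 0.1). With 3 libraries against 3 this test cannot give a p under 0.10. The summed level of both ligands overlapped between the groups, at 29.8, 30.1 and 46.2 CPM per kb against 40.2, 48.4 and 28.7 CPM per kb.

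**Figure D2:**
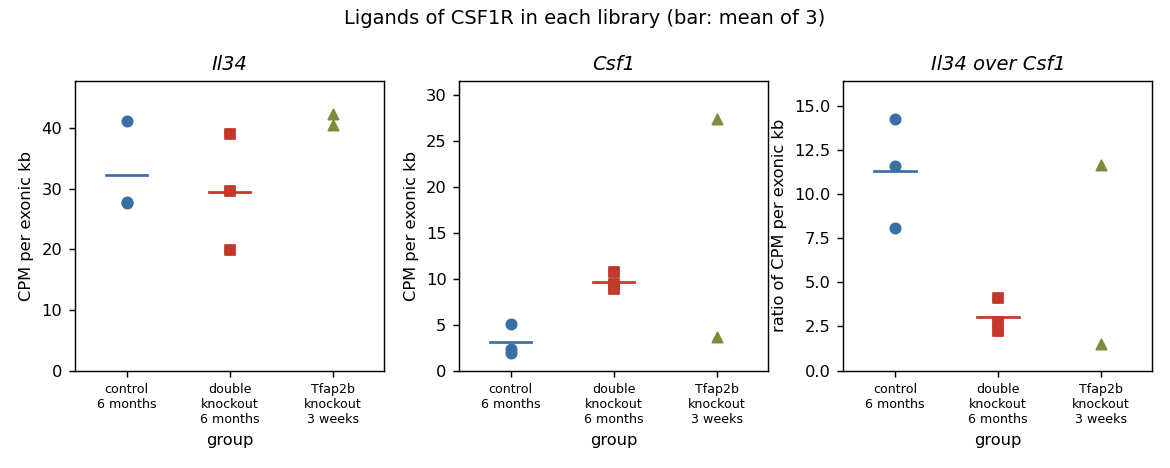
Il34 and Csf1 in CPM per exonic kb, and their ratio, in each library, with the mean of 3 as a bar for each 6-month group. Il34 overlaps between the 6-month groups, Csf1 lies higher in the labelled double knockouts, and the ratio there is 2.24 to 4.13 against 8.09 to 14.3 in the controls.

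Csf1r, the receptor for both ligands, was at 14.3, 23.5 and 26.4 CPM in the controls and at 40.5, 32.9 and 30.0 CPM in the labelled double knockouts. Every one of the latter lay above every control, and the lowest value was in control library 1. The means were 21.4 ± 6.31 and 34.5 ± 5.42 CPM (SD, n = 3 each). Its log2 fold change came to 0.61 (SE 0.24), with an unadjusted p of 0.0263 and an adjusted p of 0.105 in edgeR. The 95% interval of the fold was 1.06 to 2.19, and the gene did not pass the threshold. It passed without control library 3 (0.87, adjusted p = 0.0214) and when no filter on low counts was used (0.71, adjusted p = 0.0234). Csf1r lies on chromosome 18, where 871 of its exonic bases overlap Hmgxb3 on the opposite strand, and the use of strand in counting was not given in the sources used here. Hmgxb3 itself was at 43.8, 37.7 and 47.9 CPM in the controls and at 51.4, 49.6 and 56.3 CPM in the others (log2 fold change 0.21, adjusted p = 0.380, edgeR). Its part in the Csf1r counts was not tested.

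Cd207 encodes langerin, the lectin of the Birbeck granule and the marker most specific to Langerhans cells in epidermis. It was at 21.6, 23.9 and 27.4 CPM in the controls and at 33.8, 20.9 and 18.8 CPM in the labelled double knockouts. The highest and the 2 lowest values were all in the labelled double knockouts, so the groups overlapped and the spread was wider there. The means were 24.3 ± 2.93 and 24.5 ± 8.12 CPM (SD, n = 3 each), and the log2 fold change was -0.07 (SE 0.23, adjusted p = 0.870, edgeR). The 95% interval of the fold, 0.665 to 1.37, bounds the difference that these libraries leave room for. Cd207 lies on chromosome 6, 83671215 to 83677857 on the minus strand. Its counts, 260 to 467 over the 6 libraries, put this defining marker of the cell type well above 0 in every library of the labelled tissue.

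Itgax encodes CD11c, an integrin subunit of dendritic cells, and Ly75 encodes DEC-205, an endocytic receptor that Langerhans cells use to take up antigen. Itgax was at 4.90, 11.0 and 4.04 CPM in the controls and at 7.39, 5.73 and 8.57 CPM in the labelled double knockouts. The highest value was in control library 2, where the receptor-gene background amounted to 15.3 of 125 counts, and the lowest was in control library 3. Its log2 fold change was 0.05 (SE 0.40, adjusted p = 0.946, edgeR), with a 95% interval of the fold of 0.559 to 1.91. Ly75 was at 11.2, 14.9 and 17.9 CPM in the controls and at 25.1, 11.0 and 17.8 CPM in the others, which held both the highest and the lowest value. Its log2 fold change was 0.21 (SE 0.30, adjusted p = 0.654, edgeR). Itgax lies on chromosome 7, 128129547 to 128150657 on the plus strand. Ly75 lies on chromosome 2, 60292103 to 60383303 on the minus strand, with 249 exonic bases under Gm13571 on the opposite strand.

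Adgre1, Fcer1g and Ctss had negative log2 fold changes, and none of the 3 passed the test. Adgre1 encodes F4/80, a surface receptor of macrophages and Langerhans cells, and was at 6.23, 8.04 and 9.31 CPM in the controls and at 7.89, 4.84 and 4.17 CPM in the labelled double knockouts. Labelled double knockout library 1 lay among the controls, and the other 2 lay below all of them. Fcer1g encodes the signalling adaptor shared by several Fc receptors, and was at 7.97, 13.3 and 9.31 CPM in the controls and at 10.6, 5.32 and 2.31 CPM in the others. The pattern was the same: labelled double knockout library 1 lay among the controls and the other 2 below them, with 78 and 41 counts. Ctss encodes cathepsin S, the protease that trims the invariant chain of MHC class II, and was at 7.97, 11.8 and 9.31 CPM in the controls and at 12.3, 7.84 and 5.69 CPM in the others. Here labelled double knockout library 1 was the highest of the 6, and the other 2 were the lowest.

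The log2 fold changes were -0.55 for Adgre1 (SE 0.32, adjusted p = 0.256), -0.83 for Fcer1g (SE 0.48, adjusted p = 0.257) and -0.25 for Ctss (SE 0.31, adjusted p = 0.616, all edgeR). The 95% intervals of the fold were 0.416 to 1.12 for Adgre1, 0.268 to 1.19 for Fcer1g and 0.519 to 1.37 for Ctss. Without labelled double knockout library 1 the log2 fold changes were further from 0, and those of Adgre1 and Fcer1g reached -0.81 and -1.42, with no adjusted p under 0.05. Adgre1 lies on chromosome 17, 57358686 to 57483529 on the plus strand, Fcer1g on chromosome 1, 171229572 to 171234365 on the minus strand, and Ctss on chromosome 3, 95526786 to 95556403 on the plus strand.

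Mfge8 encodes a secreted protein that bridges phosphatidylserine on dying cells to integrins of phagocytes, and it is made by keratinocytes and other cells besides Langerhans cells. It was at 39.9, 48.1 and 52.5 CPM in the controls and at 73.8, 48.8 and 58.9 CPM in the labelled double knockouts. Labelled double knockout libraries 1 and 3 lay above all controls and library 2 among them. Its log2 fold change was 0.29 (SE 0.18, adjusted p = 0.295, edgeR), with a 95% interval of the fold of 0.925 to 1.62. Mfge8 lies on chromosome 7, 79133768 to 79149060 on the minus strand.

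**Figure D3:**
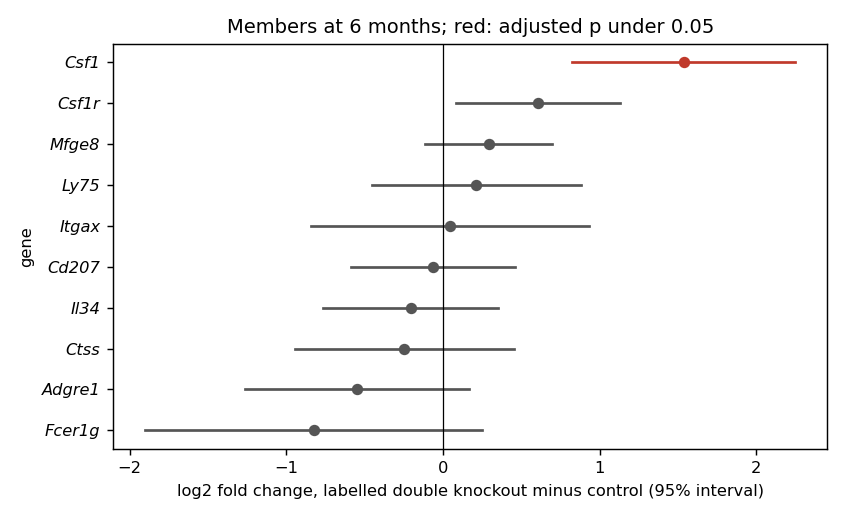
Log2 fold changes of the 10 genes at 6 months, labelled double knockouts minus control, with 95% intervals from the edgeR fit; red marks an adjusted p under 0.05. The intervals of Csf1 and Csf1r lie above 0, and those of the other 8 genes include 0.

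The upstream sequences of Csf1 and Mfge8 are shown because Csf1 was the gene that passed the test and Mfge8 was the one whose promoter held the AP-2 motif. They are the 250 bases before the RefSeq start site, 5′ to 3′ on the gene's own strand, from the RefSeq table of GRCm38.p6, which matched 7 of the 10 genes by symbol. Promoters on the chromosome of Csf1r were left out of the search, and Il34 and Adgre1 were not matched. Capitals mark the motif searched, GCCNNNGGC, which reads the same on both strands.
Csf1, chr3:107760470-107760719, minus strand: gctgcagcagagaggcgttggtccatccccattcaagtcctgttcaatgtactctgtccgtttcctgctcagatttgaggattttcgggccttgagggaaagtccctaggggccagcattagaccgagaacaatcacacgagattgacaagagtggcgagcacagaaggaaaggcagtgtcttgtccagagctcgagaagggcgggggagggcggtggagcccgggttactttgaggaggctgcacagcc
Mfge8, chr7:79149061-79149310, minus strand: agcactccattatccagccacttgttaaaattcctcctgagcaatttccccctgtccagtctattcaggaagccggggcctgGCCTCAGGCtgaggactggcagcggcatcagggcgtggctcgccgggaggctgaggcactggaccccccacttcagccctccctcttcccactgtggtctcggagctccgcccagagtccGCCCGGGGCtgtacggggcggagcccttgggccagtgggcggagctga
Of the 7 promoters, 1 held the AP-2 motif, that of Mfge8, with 2 matches. The same window held it in 4509 of 32851 RefSeq promoters outside the chromosome of Csf1r, or 13.7%. GAGGAAGT, a motif of the myeloid factor PU.1, was in none of the 7 on either strand and in 2.44% of the same 32851 promoters. A match is a description of these letters, and no match says only that the letters were not in this window. The GC content was 56.4 percent for Csf1 and 65.2 percent for Mfge8.

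Per exonic kilobase, Il34 was the most abundant of the 10 transcripts in the controls, at 32.2 ± 7.71 CPM per kb (SD, n = 3), and its libraries did not overlap with the next gene, Cd207, at 16.0 ± 1.93. Fcer1g, Mfge8 and Ctss followed at 11.7, 9.97 and 7.13 CPM per kb, each overlapping its neighbour. Csf1r came next at 4.38, apart from Ctss, and then Csf1 at 3.14, Adgre1 at 2.42, Ly75 at 2.13 and Itgax at 1.39 CPM per kb, each overlapping the next. In the labelled double knockouts, Il34 at 29.4 ± 9.56 and Cd207 at 16.1 ± 5.33 CPM per kb remained first and second, and their libraries overlapped. Csf1 stood at rank 4, after Mfge8 at 12.9, with 9.66 ± 0.954 CPM per kb, against rank 7 in the controls. Its libraries lay apart from those of Csf1r at 7.05 CPM per kb, the next in order. Fcer1g at 6.94 and Ctss at 6.34 CPM per kb overlapped each other, and Ly75, Adgre1 and Itgax were again the lowest 3, at 2.61, 1.74 and 1.505 CPM per kb.

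The genes found in Langerhans cells were also set against Cd207 in the same library, a ratio chosen after the data were seen. The ratio of Csf1r to Cd207 counts was 0.662, 0.985 and 0.962 in the controls and 1.20, 1.57 and 1.59 in the labelled double knockouts. The ratio for Adgre1 was 0.288, 0.337 and 0.340 against 0.233, 0.231 and 0.222, and that for Fcer1g was 0.369, 0.559 and 0.340 against 0.313, 0.254 and 0.123. These 3 of 6 ratios did not overlap between the groups, with Csf1r above and Adgre1 and Fcer1g below the controls. Of all other genes tested, set against Cd207 in the same way, 22% did not overlap, 12.4% above and 9.57% below. The ratio for Ctss overlapped, at 0.340 to 0.493 in the controls and 0.302 to 0.375 in the others. Those for Ly75, 0.519 to 0.653 against 0.528 to 0.946, and Itgax, 0.147 to 0.463 against 0.218 to 0.455, overlapped as well.

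**Figure D4:**
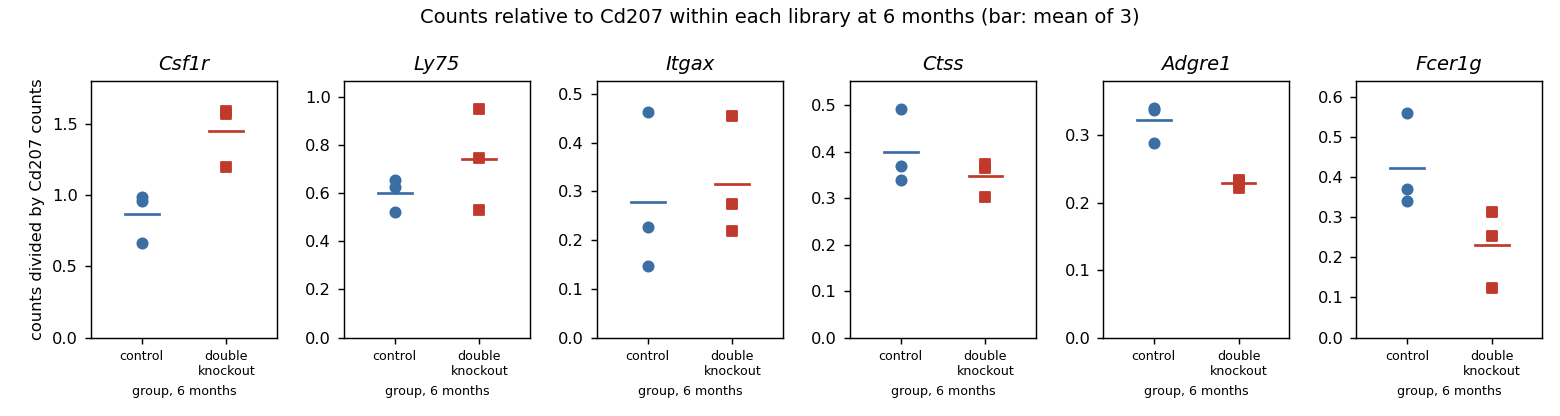
Counts of 6 genes divided by the counts of Cd207 in the same library at 6 months, with the mean of 3 as a bar. Csf1r lies above the controls in all 3 labelled double knockouts, Adgre1 and Fcer1g lie below them, and the other 3 genes overlap.

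Over all 8 libraries with counts, the 3 protein-coding genes with the smallest difference from Cd207 were Ebpl, Prickle2 and Pcgf5. Their root mean square differences of centred log2(CPM + 0.5) were 0.11, 0.12 and 0.15, against a median of 0.49 over all genes compared. For Il34 the 3 were Mettl26, Pdzd2 and Camsap3, at 0.15, 0.16 and 0.16, against a median of 0.53. All were picked as the smallest differences, so their place below the median was given by the choice.

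In the libraries labelled Tfap2b knockout at 3 weeks, Il34 was at 79.4 and 82.8 CPM and Cd207 at 19.9 and 32.6 CPM. Csf1 was at 145 CPM in the first, which carried the high dermal markers, and at 19.2 CPM in the second. Csf1r was at 61.1 and 53.1 CPM, above all 6 libraries at 6 months. Mfge8 at 190.0 and 125 CPM, Adgre1 at 19.6 and 14.2, Ctss at 15.1 and 16.1 and Fcer1g at 14.9 and 17.0 CPM also lay above all 6, whereas Ly75 at 10.9 and 18.3 CPM did not. Both libraries lay above all 6 for 4.91% of the genes tested. Itgax, at 10.6 and 12.3 CPM, overlapped them through control library 2. Age, genotype and any batch cannot be told apart in these values.

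Of 8 genes expressed by leukocytes in general, none passed (0 at an unadjusted p under 0.05 in edgeR, 0 by DESeq2 and 0 by limma-voom), with a median log2 fold change of 0.04. Their summed level was 121.4 to 172 CPM in the controls and 139 to 193 CPM in the labelled double knockouts. Ptprc, which encodes the leukocyte antigen CD45, was at 51.4 ± 20.2 and 54.9 ± 18.6 CPM (SD, n = 3 each; log2 fold change 0.02, adjusted p = 0.976, edgeR). Dendritic epidermal T cells, the other resident leukocytes of mouse epidermis, had 1 of 9 tested markers higher, Thy1, against 6.26% of all genes tested. None was lower. The median log2 fold change of these 9 was -0.42. The summed level of all 10 listed markers was 117.5 to 227 CPM in the controls against 109.4 to 265 CPM in the labelled double knockouts. Monocyte and macrophage markers summed to 13.3 to 43.8 CPM in the controls and to 16.0 to 19.8 CPM in the labelled double knockouts. Among the 7 tested, 1 was lower, Mrc1, against 8.59% of all genes tested, and the median log2 fold change was -0.90. The 9 listed neutrophil markers summed to 12.6 to 15.0 CPM in the controls and to 55.2 to 286 CPM in the others. Of the 6 tested, 1 was higher, Cxcr2, a chemokine receptor. For these 6 the median log2 fold change was 3.06. Among them 4 passed at an unadjusted p under 0.05 in edgeR, against 5691 of the 17755 genes tested. Every labelled double knockout lay above the controls for 4 of the 6, against 22.5% of all genes tested. DESeq2 called 3 and limma-voom 1. Basal keratinocyte markers were higher for 5 of 7 tested genes, Krt5, Krt14, Col17a1, Itga6 and Itgb4, against 6.26% of all genes tested. All 3 labelled double knockouts lay above the controls for 6 of the 7 and below them for 1. Over all genes tested these shares were 22.5% and 16.3%. The 7 markers summed to 8224 to 10485 CPM in the controls against 15753 to 18754 CPM in the labelled double knockouts. Markers of dermal fibroblasts, a list added after the data were seen, summed to 59.8 to 173.7 CPM in the controls and to 16.7 to 28.3 CPM in the others. The part of these other cells in the values of the 10 genes, Csf1 among them, was not tested.

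Among the genes around CSF1R, 10 ligands and receptors of the wider CSF family were tested, with a median log2 fold change of 0.30. Over all genes tested 6.26% were higher and 8.59% lower, and of these 10, 1 was higher and none lower. It was Ptprz1, a receptor phosphatase that also binds IL-34, at 27.4, 24.8 and 19.5 CPM in the controls and at 59.8, 67.4 and 75.5 CPM in the labelled double knockouts (log2 fold change 1.42, SE 0.19, adjusted p = 0.00190, edgeR). The groups did not overlap, and the call was kept in all 16 alternatives tried. Sdc1, the syndecan described as another IL-34 partner, was at 417, 468 and 437 against 604, 564 and 616 CPM and did not pass (0.36, adjusted p = 0.0766, edgeR). Of 11 genes of signalling downstream of CSF1R, 1 was higher and none lower, with a median of -0.08. It was Plcg2, a phospholipase, at 30.7, 27.8 and 24.7 CPM in the controls and at 72.3, 68.1 and 88.4 CPM in the others (log2 fold change 1.38, SE 0.17, adjusted p = 0.00152, edgeR), also in all 16 alternatives. Both genes are expressed by cells other than Langerhans cells too.

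Of 16 genes of Langerhans cell development, 1 was higher, the TGF-β receptor gene Tgfbr2, and 1 lower, the receptor kinase gene Axl. The median log2 fold change of the 16 was -0.05. Over all genes tested, 6.26% were higher and 8.59% lower. Tgfbr2 had a log2 fold change of 0.63 (SE 0.17, adjusted p = 0.0350) and Axl one of -0.68 (SE 0.18, adjusted p = 0.0366, both edgeR). The Tgfbr2 call was lost without control library 2 (0.56) and without labelled double knockout library 1 (0.62), 2 (0.74) or 3 (0.67). It was also lost with the background subtracted (adjusted p = 0.0518), in the fit of all libraries (0.0745) and without control libraries 1 and 2 together (0.0514, all edgeR). The Axl call was lost without control library 1 (-0.65) or 3 (-0.47) and without labelled double knockout library 1 (-0.48), 2 (-0.70) or 3 (-0.74), and in the fit of all libraries and without control libraries 1 and 2 together (adjusted p 0.0762 and 0.0937, edgeR). Of 12 tested genes of migration and maturation, 4 were lower and none higher, with a median of -0.98, against 8.59% lower among all genes tested. DESeq2 called 4 of the 12 and limma-voom 2. Cd83, a surface protein of mature dendritic cells, was at 11.2, 13.96 and 9.96 CPM in the controls and at 3.26, 1.09 and 1.80 CPM in the labelled double knockouts (log2 fold change -2.52, SE 0.40, adjusted p = 0.00408, edgeR). The groups did not overlap, and the Cd83 call was lost only without control libraries 1 and 2 together (-2.27, adjusted p = 0.0745).

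The other 3 lower genes were Ccl20 and Cxcl14, chemokines that keratinocytes make, and the cytokine gene Tnf. Ccl20 was at 3.99, 2.56 and 12.6 CPM in the controls and at 1.30, 0.818 and 1.97 CPM in the labelled double knockouts, with a log2 fold change of -2.17 (SE 0.62, adjusted p = 0.0397, edgeR) that was -1.17 without control library 3. Cxcl14 had a log2 fold change of -1.31 (SE 0.36, adjusted p = 0.0441) and Tnf one of -1.06 (SE 0.30, adjusted p = 0.0397, both edgeR). All 3 calls depended on single libraries and on the fit: Ccl20 and Cxcl14 were called in 9 of 16 alternatives and Tnf in 8. By limma-voom Ccl20 had an adjusted p of 0.0925 and Tnf one of 0.0548. Leaving 1 out gave log2 fold changes of -2.54 to -1.17 for Ccl20, of -1.77 to -1.01 for Cxcl14 and of -1.30 to -0.81 for Tnf. The Ccl20 call was lost without control library 1 or 3 or any labelled double knockout, the Cxcl14 call without any control or labelled double knockout library 1 or 2, and the Tnf call without control library 2 or 3 or any labelled double knockout.

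Of 8 tested further markers reported in Langerhans cells, 1 was higher, Sirpa, and 2 lower, Mrc1 and Zbtb46, with a median of -0.95. Over all genes tested, 6.26% were higher and 8.59% lower. The Mrc1 call was kept in 3 of 14 alternatives. Zbtb46, a transcription factor of conventional dendritic cells, was at 7.06, 6.63 and 7.03 CPM in the controls and at 1.38, 2.66 and 0.845 CPM in the others (log2 fold change -2.07, SE 0.44, adjusted p = 0.0132, edgeR). Its call was lost without labelled double knockout library 1 (-1.93, adjusted p = 0.0736) and without control libraries 1 and 2 together (-2.09, adjusted p = 0.107). Sirpa had a log2 fold change of 0.87 (adjusted p = 0.0351, edgeR) that fell short of the threshold when any 1 library other than control library 3 was left out (0.62 to 1.05), and without control libraries 1 and 2 together (0.61). Among MHC class II genes, which act with Ctss in antigen presentation, 1 of 7 was lower, H2-Ab1, and the median was -0.64. H2-Ab1 had a log2 fold change of -0.66 (adjusted p = 0.0341, edgeR), not called without control library 1 (-0.67) or 2 (-0.56) or labelled double knockout library 2 (-0.51) or 3 (-0.56). It was called in 8 of 16 alternatives, and not with library totals alone (adjusted p = 0.0514), all libraries in one fit (0.0624) or control libraries 1 and 2 both left out (0.300, edgeR).

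Of 10 tested lysosomal proteases and related genes, 2 were higher and none lower, against 6.26% and 8.59% of all genes tested. Their median was 0.05. Ctsc was at 75.9, 53.2 and 45.4 CPM in the controls and at 126, 101.0 and 156 CPM in the labelled double knockouts (log2 fold change 1.06, SE 0.23, adjusted p = 0.0180, edgeR), and Ctsb had a log2 fold change of 0.61 (adjusted p = 0.0301, edgeR). The Ctsc call was lost without control library 2 (1.00) or labelled double knockout library 1 (1.12), and the Ctsb call without control library 2 (0.60) or labelled double knockout library 2 (0.63) or 3 (0.56). Over all 16 alternatives Ctsc was called in 13 and Ctsb in 9. Of the partners of Fcer1g, 4 tested receptors and kinases that signal through the same kind of motif gave no call (1 at an unadjusted p under 0.05 in edgeR, 0 by DESeq2 and 0 by limma-voom), with a median of -0.45. Of the integrins related to Itgax, 3 were tested and none passed (0 at an unadjusted p under 0.05 in edgeR, 0 by DESeq2 and 0 by limma-voom). Itgb2, the partner chain of CD11c, was at a mean of 4.40 CPM in the controls and 4.93 CPM in the others (log2 fold change 0.08, adjusted p = 0.902, edgeR). Of 9 tested genes of apoptotic cell uptake, the process in which Mfge8 acts, 1 was lower, Axl, and none higher, with a median of -0.38.

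**Figure D5:**
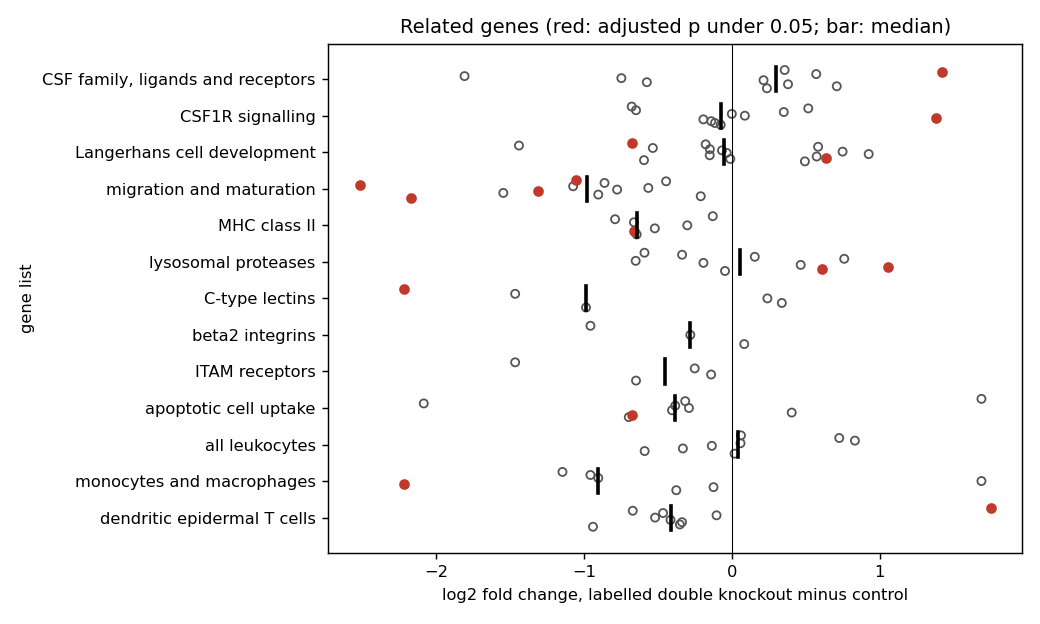
Log2 fold changes at 6 months of the tested genes in 13 lists related to Langerhans cells and CSF1R, labelled double knockouts minus control, with the median as a bar and genes with an adjusted p under 0.05 in red. Ptprz1 and Plcg2 are the red points furthest right in the upper 2 rows, and Cd83 is the one furthest left.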

How the data were processed

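RNA from epidermal sheets of 21 mouse samples was depleted of ribosomal RNA and sequenced as paired-end reads, per the labels' protocols. The authors deposited whole-number counts per gene, 1 file a sample. Per the submitters' processing notes, the tools were Trimmomatic 0.36, STAR 2.5.2b and featureCounts of Subread 1.5.2, and the builds GRCm38 and GRCh38 are listed with no role. Whether counting used strand or reads with several alignments was not given in the sources used here. Of the 49315 identifiers, 49056 were in GENCODE M21 (GRCm38), 49021 on the same chromosome and 44823 with the same start and end. Symbols came from M21, and coordinates are those of the files, read as GRCm38.

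Groups and replicate numbers came from the sample titles. The 6-month groups were compared with edgeR 4.0.16 (limma 3.58.1, R 4.3.3): filterByExpr, TMM factors, glmQLFit with robust = TRUE, glmQLFTest, and Benjamini-Hochberg adjustment over all genes tested with a threshold of 0.05. An SE is the unshrunken log2 fold change divided by the root of its quasi-likelihood F. CPM is per library total. The exact permutation test used scipy 1.17.1. The fit was tested on simulated data. The median-ratio factors and the Wald test of DESeq2 1.42.0 were among the alternatives, with library totals, other filters, limma-voom, a replicate block, all libraries in 1 fit, background subtraction and each library left out. Libraries held 11318181 to 17746284 counts. PCR reads without molecular identifiers are not independent molecules.

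The 10 genes and all lists were chosen with earlier results of these data known. In each other list, up to 4 genes past the threshold could be named, smallest adjusted p first, or, where none passed, the 2 with the highest mean CPM. Sdc1 and Hmgxb3 were named after their values were seen. Lists of dermal fibroblast, endothelial and adipocyte markers and ratios to Cd207 were added after the data were seen.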

Additional observations from a re-analysis of the deposited data

Results flagged for a closer look

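In 5 of the 10 genes, both libraries labelled Tfap2b knockout at 3 weeks, which enter no comparison, lay above every control library at 6 months, as they did for 13.1% of all genes tested. The lower of the 2 values was 53.1 CPM for Csf1r, against a highest control of 26.4 CPM. For Mfge8 it was 125 CPM against 52.5 CPM, and for Adgre1 14.2 CPM against 9.31 CPM. For Ctss it was 15.1 CPM against 11.8 CPM, and for Fcer1g 14.9 CPM against 13.3 CPM. The difference was not tested, because no control library of that age held counts. The first of the 2 libraries also carried dermal fibroblast markers at 2675 CPM and adipocyte markers at 1119 CPM, whereas the second had 17.6 and 0.639 CPM, so the second gives the values without the library that stood apart: 53.1 CPM for Csf1r, 125 for Mfge8, 14.2 for Adgre1, 16.1 for Ctss and 17.0 for Fcer1g. The ages and genotypes cannot be told apart.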

How the results depend on the processing

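The count of genes past the threshold, 2637, was 4809 with no filter on low counts, 1546 with all libraries in one fit and 437 with control libraries 1 and 2 both left out, where control library 3 is assumed to vary like the other group. It ranged from 668 (without labelled double knockout library 1) to 7542 (without control library 3) when 1 library was left out, and was 3835 by DESeq2 and 2141 by limma-voom. With library totals alone 1414 genes were higher and 1297 lower, against 1111 and 1526 with TMM factors. Of the 10 genes, the count past the threshold was 1 in the main comparison, 2 with no filter (Csf1 and Csf1r), 0 with all libraries in one fit (1 at an unadjusted p under 0.05), 0 without control libraries 1 and 2 (1 unadjusted), and 0 to 2 when 1 library was left out. Csf1 in the fit of all libraries had a log2 fold change of 1.57 and an adjusted p of 0.194 (edgeR). The difference in the log2 ratio of Il34 to Csf1 was -2.15 to -1.71 when 1 library was left out. Because the groups do not overlap and a ratio within a library does not depend on its scaling, its sign could not turn.

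The replicate number as a block gave 1729 genes past the threshold, and Csf1 was again the 1 of the 10. Of the related genes, Axl, H2-Ab1, Ctsb and Mrc1 were not called with the block (edgeR adjusted p 0.0503, 0.0503, 0.0662 and 0.0785). Libraries with the same number did not deviate together (correlations of deviations 0.0136, -0.166 and -0.0644), so no pairing by number was seen. With 3 libraries a group, this does not show that the libraries were unpaired.

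Log2 fold changes near 0 turned sign. Leaving out 1 library gave ranges of -0.31 to 0.12 for Cd207, -0.43 to 0.088 for Il34, -0.13 to 0.61 for Itgax, -0.049 to 0.50 for Ly75 and -0.53 to 0.013 for Ctss. Ranges were -0.26 to 0.35 for Ptprc, -0.27 to 0.29 for Arhgdib, -0.39 to 0.25 for Syk, -0.73 to 0.11 for Fcgr2b, -0.46 to 0.25 for Itgal, -0.15 to 0.43 for Itgb2 and -0.17 to 0.22 for Pmel. Cd207 was at 0.012 with library totals and 0.041 with no filter, and Pmel at 0.055 and 0.10. Without control libraries 1 and 2, Ly75 was at -0.051, Ptprc at -0.37, Arhgdib at -0.058, Itgal at 0.46 and Pmel at 0.46. Ptprc was at -0.014 with at least 10 counts in every library, Arhgdib at -0.0031 with the background subtracted, and Pmel at 0.0080 by limma-voom and 0.026 with all libraries in one fit. The cause was not tested.

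Fcer1g had 41 to 151 counts per library. The 95% interval of the fold was 0.268 to 1.19 for Fcer1g and 0.559 to 1.91 for Itgax.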

Other observations

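Some genes of lists not described above carried values of their own. Among melanocyte markers 4 were tested and none passed (1 at an unadjusted p under 0.05 in edgeR, 1 by DESeq2 and 0 by limma-voom). Pmel, a melanosome matrix protein, had a log2 fold change of -0.02 (adjusted p = 0.966) and Mitf, the melanocyte lineage factor, one of -0.80 (adjusted p = 0.083, edgeR). Of 7 mast cell markers 1 was tested, the stem cell factor receptor gene Kit, with a log2 fold change of 0.57 (adjusted p = 0.510, edgeR). Of 5 tested C-type lectins, 1 was lower, Mrc1, against 8.59% of all genes tested, and the median was -0.99. Mrc1 was at 1.33, 3.53 and 0.781 CPM in the controls and at 0.434, 0.341 and 0.169 CPM in the labelled double knockouts (log2 fold change -2.22, adjusted p = 0.0484, edgeR), and it lost its call without control library 1 (-2.41) or 2 (-1.47) or labelled double knockout library 1 (-2.37), 2 (-2.22) or 3 (-1.95). It was called in 3 of 14 alternatives: by limma-voom its adjusted p was 0.125, with library totals alone 0.0517, with no filter 0.0828, in the fit of all libraries 0.238 and without control libraries 1 and 2 together 0.540 (the last 4 by edgeR). Of 3 tested markers of dermal dendritic cells, 1 was lower, Zbtb46. The 4 tested endothelial markers gave no call (1 at an unadjusted p under 0.05 in edgeR, 1 by DESeq2 and 0 by limma-voom). All 6 listed endothelial markers summed to 6.77 to 35.0 CPM in the controls and to 7.64 to 9.99 CPM in the labelled double knockouts. The 1 tested adipocyte marker did not pass (0 at an unadjusted p under 0.05 in edgeR, 0 by DESeq2 and 0 by limma-voom).

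H2-Eb1, an MHC class II chain, had 122 and 119 CPM in the 2 libraries labelled Tfap2b knockout at 3 weeks. It was at 3.04 to 6.89 CPM in all 6 libraries at 6 months, controls among them. Cd1d1, a lipid-presenting molecule, was at 38.6 CPM in the first 3-week library and at 0.130 to 0.972 CPM in the other 7. Both were chosen after their values were seen, and age, genotype and any batch cannot be told apart in them.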
